A study of Mus musculus with 12 samples.

Results

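Nfkbia, Nfkbib, Nfkbie, Nfkbiz and Bcl3, 5 genes of the IkB family, were followed in fibroblasts cultured from mouse embryos. They were taken by symbol: every probe set annotated with 1 of these 5 symbols and no other was used, which gave 13 probe sets of the 34945 that carry a single symbol. Nfkbia had 5, Nfkbiz 3, Nfkbib and Nfkbie 2 each, and Bcl3 1. These are 5 of the 18193 genes named on the array.

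Cells came from wild-type mice or from mice with a kinase-dead form of IRAK4, the serine/threonine kinase that joins MyD88 at the activated interleukin-1 receptor. In each genotype 1 group was grown for 4 h with no stimulus, 1 was given 1 ng/ml mouse interleukin-1 beta (IL-1b) for 1 h, and 1 was given it for 4 h. Each of the 6 groups held 2 arrays. All cells grew in the same serum-containing medium, and the 4 h unstimulated cells are the control for both times, so at 1 h time in culture differs along with the stimulus. The 2 samples of a group are called biological replicates, and nothing says whether they came from separate embryos or cultures, so p-values measure the spread between these samples.

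IkB proteins carry ankyrin repeats that bind NF-kB dimers. The products of Nfkbia (IkB-alpha), Nfkbib (IkB-beta) and Nfkbie (IkB-epsilon) hold NF-kB in the cytoplasm until the IKK kinases mark them for destruction. IkB-alpha and IkB-epsilon are remade from NF-kB target genes and so close a negative feedback loop, while IkB-beta is known for a steadier supply. The products of Nfkbiz (IkB-zeta) and Bcl3 act in the nucleus, where they bind NF-kB p50 or p52 dimers and change which target genes are transcribed.

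The arrays had median signals of 23 to 28.3, and replicates correlated at 0.973 to 0.979 over the 27086 probe sets tested (between groups, 0.928 to 0.976). Fibroblast markers (9 of 9 above the filter) summed to signals of 23975 to 29062 on the 12 arrays, most of it from collagens and Vim. Within that list the group means of Pdgfra, Lum and Thy1 stood lower in every kinase-dead group. Those of Pdgfra were 583.5 to 774 in wild-type and 132 to 173 in kinase-dead cells. For Lum they were 363 to 595 and 58.8 to 73.1, and for Thy1 538 to 627 and 367 to 512. Of 4 endothelial and 4 epithelial markers, 2 and 1 reached the filter, and their summed signals were 22.9 to 88.2 and 33.2 to 67. Macrophage markers (6 of 7 above the filter; Itgam was not) summed to 320 to 364.8 in unstimulated, 383.1 to 391.2 in 1 h and 357.9 to 409.4 in 4 h wild-type cells. In kinase-dead cells the same sums were 967.8 to 1008, 1088.7 to 1089.3 and 934.7 to 1087.6. Most of that signal came from Lyz1 and Lyz2, no marker was at 0 in all arrays, and Ptprc, which marks blood-derived cells, stood at 5.90 to 13.6 in wild-type and 37.2 to 46.8 in kinase-dead group means. The macrophage sums and the levels of Pdgfra, Lum and Thy1 move with genotype beside every comparison of genotypes below. Their part in those results was not tested. The actin 3' to 5' ratio, a sign of RNA quality, averaged 2.85 ± 0.0178 (SD, n = 2) in kinase-dead cells without IL-1b. In the other groups it averaged between 2.36 and 2.49. Its SD was widest in wild-type cells, 0.385 without IL-1b (arrays at 2.68 and 2.14) and 0.303 at 4 h. Its part in the responses of either genotype was not tested. The Irak4 transcript was not analysed here.

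Across the IkB family, IL-1b raised the transcripts of IkB-alpha, IkB-zeta and IkB-epsilon in wild-type cells, the first pair at full height by 1 h and IkB-epsilon mostly between 1 h and 4 h. In kinase-dead cells the 1 h responses of Nfkbia and Nfkbiz were smaller, while the difference for Nfkbie at 1 h did not pass. By 4 h Nfkbia, Nfkbie and the leading Nfkbiz probe set had risen there as well, to lower levels than in wild type. Nfkbib did not pass the test in any of the 11 comparisons as fitted. Bcl3 was dim, and its kinase-dead arrays without IL-1b and at 1 h were under the filter. As fitted, it was lower in kinase-dead cells in each condition and rose at 4 h in wild-type cells. Each of these Bcl3 calls ended without some single arrays. Each gene is given first by the probe set whose log2 signal averaged highest, called its leading probe set. A call is an adjusted p under 0.05 in limma over all 27086 probe sets, and log2 fold changes are of signal + 8.

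**Figure D1:**
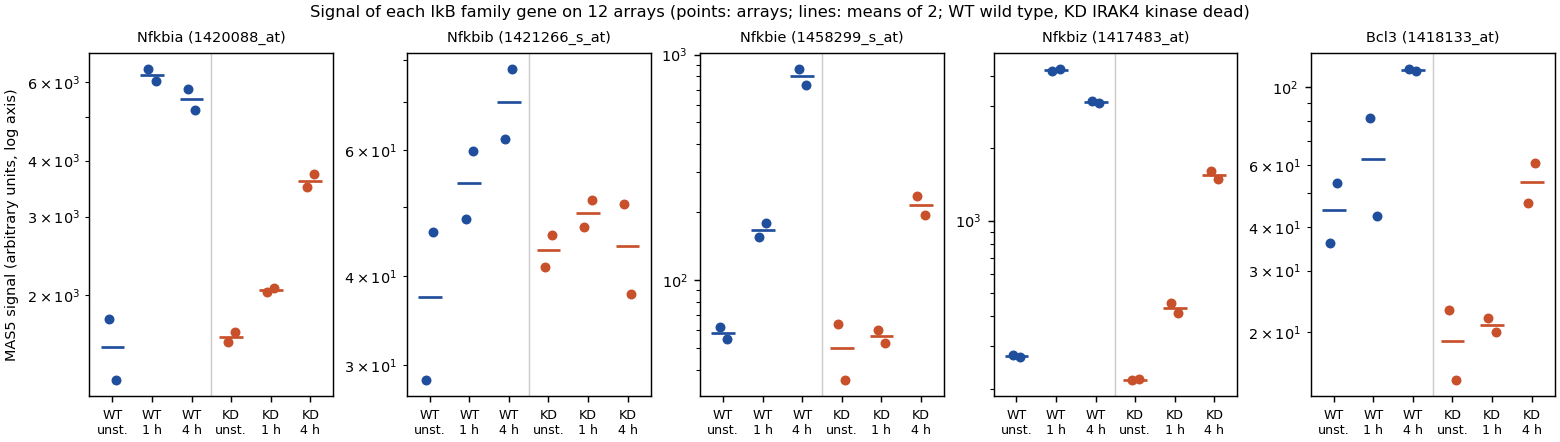
Signal (MAS5 units, log axis, a scale of its own in each panel) of the leading probe set of each gene on the 12 arrays, where points are arrays and lines are means of 2. Nfkbia and Nfkbiz are highest in wild-type cells at 1 h, Nfkbie and Bcl3 in wild-type cells at 4 h, and the Nfkbib panel spans only 28.6 to 77.9.

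Nfkbia, the gene of the most rapidly remade inhibitor, gave signals of 1768 and 1291 on the unstimulated wild-type arrays, 6420 and 6025 at 1 h, and 5794 and 5186 at 4 h (probe set 1420088_at, the leading one on the log2 scale, while 1420089_at has a slightly higher mean linear signal, 3442 against 3421). In kinase-dead cells it gave 1572 and 1660 unstimulated, 2034 and 2079 at 1 h, and 3487 and 3730 at 4 h. The unstimulated arrays of the genotypes overlapped, while at 1 h and at 4 h each wild-type array lay above each kinase-dead array. The order of levels was wild type at 1 h, wild type at 4 h, kinase dead at 4 h, kinase dead at 1 h, and then both unstimulated groups. The first and second of these did not differ by the test (log2 difference of 4 h over 1 h -0.18 ± 0.11, SE; adjusted p = 0.316, but 0.00119 when the gene's 5 probe sets were averaged), nor did the unstimulated groups (0.10 ± 0.11; adjusted p = 0.654, but 0.0193 without wild-type unstimulated replicate 1).

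In wild-type cells Nfkbia rose by 2.04 ± 0.11 on the log2 scale at 1 h (SE, n = 2 arrays per group; limma adjusted p = 1.73e-09) and stood 1.85 ± 0.11 above control at 4 h (adjusted p = 4.15e-09). In kinase-dead cells the 1 h value was 0.35 ± 0.11 and did not pass (limma adjusted p = 0.118). This verdict rests on the setting: it passed without wild-type unstimulated replicate 1 or 2 (0.00927 and 0.00912), with array weights (0.0438), with the fit limited to the 2 groups (0.0172) and with the 5 probe sets averaged (0.00111). At 4 h Nfkbia rose there by 1.15 ± 0.11 (adjusted p = 1.43e-05), and it was higher at 4 h than at 1 h by 0.81 ± 0.11 (adjusted p = 0.000558). Without the variance trend these last 2 adjusted p-values were 0.0567 and 0.091. The signal gained over control by kinase-dead cells was 9.39% of the wild-type gain at 1 h and 50.3% at 4 h. Over the 5 Nfkbia probe sets this share ran from 3.83% to 17.9% at 1 h and from 29.5% to 57.3% at 4 h.

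The other 4 Nfkbia probe sets showed the same order of levels with larger folds. Their wild-type values at 1 h were 2.32 ± 0.14, 3.02 ± 0.09, 3.70 ± 0.11 and 4.24 ± 0.13, and all 4 passed. The fold grew as the unstimulated signal fell: 1448306_at went from 89 and 97 to 1967 and 1844, while 1420089_at went from 1553 and 1077 to 6206 and 6757. Over the 5 probe sets the linear fold at 1 h ran from 4.07 to 20.5, so the size of the Nfkbia response depends on the probe set read. These probe sets measure 1 gene and are not replicates of it.

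**Figure D2:**
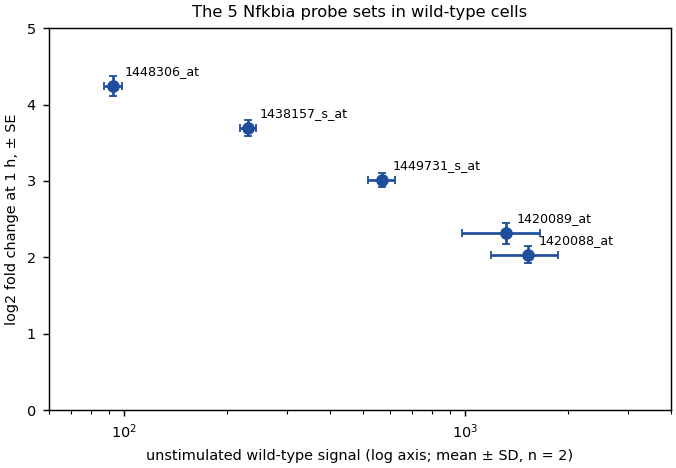
Log2 fold change of the 5 Nfkbia probe sets at 1 h in wild-type cells (± SE) against their unstimulated wild-type signal (mean ± SD, n = 2, log axis). The fold falls from 4.24 at a signal of 93 to 2.04 at a signal of 1529.

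In kinase-dead cells at 1 h these 4 probe sets rose, by 0.83 ± 0.14, 0.53 ± 0.09, 0.63 ± 0.11 and 0.64 ± 0.13, with limma adjusted p of 0.00396, 0.00447, 0.00412 and 0.0136. The array values show how small the step was: 1448306_at went from 116.2 and 112.2 to 164.8 and 202.5, and 1438157_s_at from 222.1 and 215.6 to 365 and 322.6. Each of these calls ended without some single arrays: 3 without kinase-dead unstimulated replicate 1, and 2 each without its replicate 2, kinase-dead 1 h replicate 1 and kinase-dead 1 h replicate 2, with adjusted p of 0.0503 to 0.183. All 4 also ended without the variance trend (0.0897 to 0.144). Between 1 h and 4 h wild-type cells lost Nfkbia signal on 3 of the 5 probe sets (-0.33 ± 0.09, -0.78 ± 0.11 and -0.78 ± 0.13; the first lost its call without any 1 of the 4 stimulated wild-type arrays, adjusted p of 0.067 to 0.149). Over the same interval all 5 rose in kinase-dead cells, by 0.81 to 1.28 (for 1420089_at adjusted p = 0.0566 without kinase-dead 4 h replicate 2).

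The 250 bases before the RefSeq start of Nfkbia are shown because this gene and Nfkbie rose and carry a match to the NF-kB consensus motif there. Sequences were in the RefSeq promoter table (GRCm38.p6) for 4 of the 5 genes, all but Nfkbiz. The kB consensus of 10 bases was searched on both strands. Capitals mark a match. The Nfkbia match reads GGGAATTTCC on the strand opposite to the gene and lies 29 to 20 bases before the start, and the Nfkbie match reads GGGGGATTCC on the gene's strand, 106 to 97 bases before it.
Nfkbia, chr12:55492648-55492897, minus strand: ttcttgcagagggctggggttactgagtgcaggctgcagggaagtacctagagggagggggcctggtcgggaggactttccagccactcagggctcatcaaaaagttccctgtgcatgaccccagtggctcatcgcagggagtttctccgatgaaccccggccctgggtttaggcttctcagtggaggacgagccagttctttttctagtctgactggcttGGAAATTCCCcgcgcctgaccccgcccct
Nfkbie, chr17:45555450-45555699, plus strand: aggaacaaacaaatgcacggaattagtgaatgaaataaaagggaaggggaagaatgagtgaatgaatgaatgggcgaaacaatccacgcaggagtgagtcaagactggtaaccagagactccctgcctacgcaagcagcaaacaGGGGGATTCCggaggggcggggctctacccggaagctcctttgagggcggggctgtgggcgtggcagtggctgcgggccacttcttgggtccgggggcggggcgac
Of 32851 promoter windows of this length in the table, 7.25% hold a match. The Nfkbib and Bcl3 windows hold none, which says only that these letters are not in that window. Bcl3 was also called higher in wild-type cells at 4 h, so a rise did not always go with a match.

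Nfkbib, the gene of IkB-beta, was dim and did not move by the test. Its brighter probe set (1421266_s_at) gave 28.6 and 46.1 on the unstimulated wild-type arrays, 48.1 and 59.7 at 1 h, and 62.1 and 77.9 at 4 h. Kinase-dead arrays gave 41.2 and 45.7 unstimulated, 46.8 and 51.1 at 1 h, and 50.4 and 37.8 at 4 h. Wild-type values at 4 h lay above the unstimulated ones, with a log2 difference of 0.80 ± 0.26 that missed the threshold (95% interval 0.26 to 1.34; limma adjusted p = 0.0675, but 0.0328 without wild-type unstimulated replicate 2, 0.0379 with median centring and 0.0336 with quantile normalization). At 1 h the difference was 0.47 ± 0.26 (interval -0.07 to 1.01). Both wild-type 4 h arrays lay above the other 10 arrays, and both wild-type 1 h arrays above both unstimulated wild-type ones, while the 3 kinase-dead groups overlapped wild type at 1 h or without IL-1b. None of these differences passed. In kinase-dead cells it was 0.15 ± 0.26 at 1 h and 0.01 ± 0.26 at 4 h (interval -0.53 to 0.55). The other probe set, 1446718_at, ranged from 1.3 to 21.2, stayed under the filter of 25.5 on all 12 arrays and was not tested.

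Nfkbie, the gene of IkB-epsilon, an inhibitor known for delayed feedback, kept rising after 1 h. Signals of 1458299_s_at were 61.8 and 54.5 on the unstimulated wild-type arrays, 155.8 and 178.2 at 1 h, and 866.5 and 734.2 at 4 h. In kinase-dead cells they were 63.6 and 35.8 unstimulated, 60.1 and 52.5 at 1 h, and 236.5 and 193.2 at 4 h. Kinase-dead arrays at 1 h overlapped the unstimulated ones, and at 4 h stood above all kinase-dead arrays of the other groups and below both wild-type 4 h arrays. The order on this probe set was wild type at 4 h, kinase dead at 4 h, wild type at 1 h, and then the 3 remaining groups, which overlapped. On the other Nfkbie probe set, 1431843_a_at, kinase dead at 4 h (177.8 and 209.5) overlapped wild type at 1 h (115.9 and 187). Kinase dead at 4 h against wild type at 1 h was not tested.

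Nfkbie rose in wild-type cells by 1.40 ± 0.21 at 1 h (limma adjusted p = 0.000405) and 3.61 ± 0.21 at 4 h (adjusted p = 2.72e-09), and was higher at 4 h than at 1 h by 2.21 ± 0.21 (adjusted p = 1.47e-06). Its kinase-dead value at 1 h was 0.20 ± 0.21 (adjusted p = 0.725). At 4 h it rose there by 1.99 ± 0.21 (adjusted p = 4.41e-05), and the signal gained was 22.3% of the wild-type gain. The second probe set, 1431843_a_at, gave 1.18 ± 0.23 and 3.10 ± 0.23 in wild-type and -0.19 ± 0.23 and 1.92 ± 0.23 in kinase-dead cells at 1 h and 4 h. All but the kinase-dead 1 h value passed. The wild-type 1 h call ended without wild-type unstimulated replicate 2 (log2 value 0.91) or wild-type 1 h replicate 2 (0.85). Without the variance trend the wild-type 1 h and kinase-dead 4 h calls of this probe set ended too (limma adjusted p of 0.0553 and 0.0641).

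Nfkbiz, the gene of the nuclear coregulator IkB-zeta, rose most at 1 h among the 5 leading probe sets. The probe set 1417483_at gave 275.3 and 271.9 on the unstimulated wild-type arrays, 4175 and 4284 at 1 h, and 3146 and 3072 at 4 h. Kinase-dead arrays gave 216.4 and 218.7 unstimulated, 453.3 and 411.8 at 1 h, and 1615 and 1485 at 4 h. No 2 of the 6 groups overlapped. The order was wild type at 1 h, wild type at 4 h, kinase dead at 4 h, kinase dead at 1 h, and the unstimulated groups, with wild type above kinase dead.

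In wild-type cells Nfkbiz rose by 3.91 ± 0.09 at 1 h (limma adjusted p = 1.04e-14) and 3.47 ± 0.09 at 4 h, and the step down from 1 h to 4 h passed (-0.44 ± 0.09; adjusted p = 0.00363). In kinase-dead cells it rose by 0.96 ± 0.09 at 1 h (adjusted p = 1.76e-05, but 0.0582 with its 3 probe sets averaged) and 2.79 ± 0.09 at 4 h (adjusted p = 4.05e-12), an increase of 1.82 ± 0.09 between the times. The signal gained by kinase-dead cells was 5.43% of the wild-type gain at 1 h and 47% at 4 h.

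The 3 Nfkbiz probe sets disagreed on how much kinase-dead cells responded. For 1457404_at, kinase-dead arrays gave 208 and 275.2 unstimulated, 179.2 and 195.5 at 1 h, and 339.4 and 246.8 at 4 h, against 1459 and 1481 in wild type at 1 h. Its kinase-dead values of -0.34 ± 0.15 at 1 h and 0.27 ± 0.15 at 4 h did not pass (adjusted p of 0.287 and 0.525), while its wild-type rises of 2.42 ± 0.15 and 1.44 ± 0.15 did. For the dim 1448728_a_at all 4 unstimulated arrays were under the filter of 25.5 (highest 23.9), and it was tested only because stimulated cells reached the filter. The size of its fold therefore rests on signals under the filter and on the pseudocount. As fitted it rose in wild-type cells by 3.10 ± 0.22 and 2.51 ± 0.22, and its kinase-dead values of 0.68 ± 0.22 and 0.98 ± 0.22 did not pass (adjusted p of 0.125 and 0.0654, the second 0.0366 and 0.0365 without wild-type unstimulated replicate 1 or 2). At 4 h the kinase-dead gain was 10.9% and 16.7% of the wild-type gain on these, against 47% on 1417483_at.

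**Figure D3:**
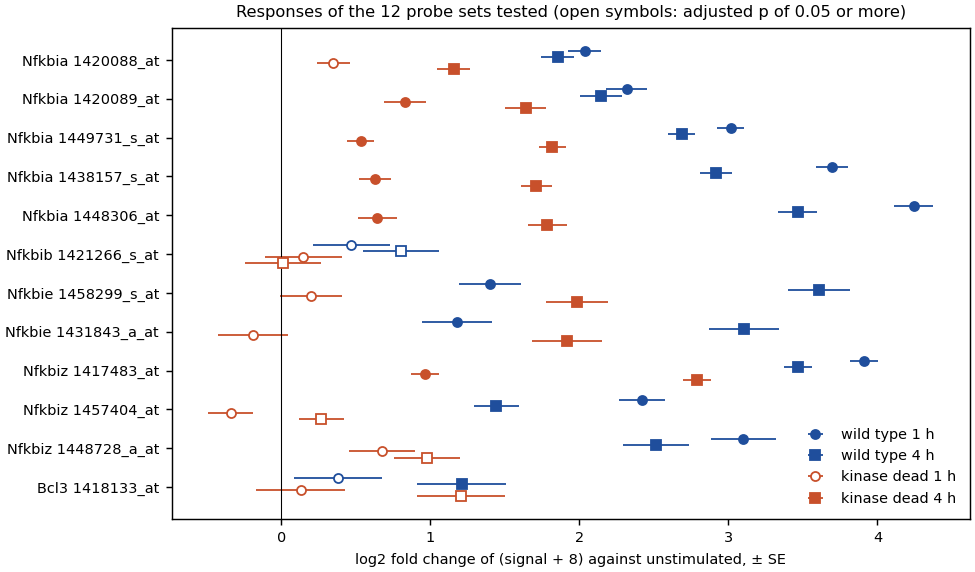
Log2 fold change against unstimulated cells (± SE) for the 12 probe sets tested, in wild-type (blue) and kinase-dead (orange) cells at 1 h (circles) and 4 h (squares), with open symbols where the adjusted p is 0.05 or more. The wild-type symbols of Nfkbia, Nfkbie and Nfkbiz all lie right of the kinase-dead ones of the same time, and Nfkbiz 1457404_at has kinase-dead values of -0.34 and 0.27.

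Bcl3, the gene of a nuclear cofactor of p50 and p52, was dim, with 1 probe set (1418133_at). It gave 35.9 and 53.3 on the unstimulated wild-type arrays, 81.8 and 42.8 at 1 h, and 112.8 and 111 at 4 h. Kinase-dead arrays gave 23.2 and 14.6 unstimulated, 22 and 20.1 at 1 h, and 46.6 and 60.7 at 4 h. The kinase-dead arrays without IL-1b and at 1 h were all under the filter of 25.5. In each condition both kinase-dead arrays lay below both wild-type arrays, and kinase-dead cells at 4 h overlapped unstimulated wild-type cells. Wild type at 4 h was highest, the other 2 wild-type groups and kinase dead at 4 h overlapped below it, and the other kinase-dead groups were lowest.

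Bcl3 rose in wild-type cells at 4 h by 1.21 ± 0.30 (limma adjusted p = 0.0177), a call that ended without wild-type unstimulated replicate 1 (adjusted p = 0.134) or wild-type 4 h replicate 1 or 2 (0.0834 and 0.0873), and with no filter, no variance trend or array weights (0.0522 to 0.0589). At 1 h its value was 0.38 ± 0.30 (adjusted p = 0.521). In kinase-dead cells it was 0.13 ± 0.30 at 1 h and 1.21 ± 0.30 at 4 h. The latter did not pass (adjusted p = 0.102; 0.0493 with array weights), although its fold equals the wild-type one to 2 decimals and the unadjusted p-values are 0.000825 and, in wild type, 0.000807. The unstimulated kinase-dead arrays were under the filter, so the size of both kinase-dead folds rests on such signals and on the pseudocount. How far a p-value is adjusted depends on how many probe sets have p-values as small in the same comparison. The share of all probe sets called at 4 h was 7.52% in wild-type and 0.406% in kinase-dead cells.

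The family's probe sets were counted beside all probe sets tested. In wild-type cells at 1 h, 10 of its 12 tested probe sets rose and 0 fell, with a median of 2.37 against -0.06 over all probe sets, of which 6.65% were called in either direction. At 4 h 11 rose and 0 fell (median 2.60 against -0.08; background 7.52%). In kinase-dead cells 5 rose and 0 fell at 1 h (median 0.44 against 0.00; background 2.35%), and 8 rose and 0 fell at 4 h (median 1.67 against 0.01; background 0.406%). Both times of a genotype share their control arrays. These counts hold Nfkbiz 1448728_a_at, which was tested only through the groups where it was high. Without it 9 and 10 of 11 rose in wild-type cells at 1 h and 4 h (medians 2.32 and 2.69), and 5 and 8 of 11 in kinase-dead cells (medians 0.35 and 1.71).

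Counted by gene, through the leading probe sets, 3 of 5 rose in wild-type cells at 1 h (Nfkbia, Nfkbie, Nfkbiz) and 4 at 4 h, with Bcl3 added. In kinase-dead cells 1 rose at 1 h (Nfkbiz) and 3 at 4 h (Nfkbia, Nfkbie, Nfkbiz). For the background, a fit to 1 probe set per gene called 930 and 1501 of 12456 genes in wild-type cells at 1 h and 4 h. In kinase-dead cells it called 407 and 77, all in either direction. The count at 1 h in kinase-dead cells became 2 without wild-type unstimulated replicate 1 or 2, where Nfkbia passed too, and with Nfkbia read from 1420089_at. Between 1 h and 4 h, 2 probe sets rose and 5 fell in wild-type cells (background 14.7%). Both that rose were of Nfkbie, and those that fell were 3 of Nfkbia and 2 of Nfkbiz. In kinase-dead cells 9 rose and 0 fell over that interval (background 2.7%). The rise of Nfkbiz 1457404_at among them (0.61 ± 0.15; adjusted p = 0.0405) ended without any 1 of 7 arrays, the 4 stimulated wild-type ones, both kinase-dead 1 h ones and kinase-dead 4 h replicate 1, with adjusted p of 0.0541 to 0.335.

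**Figure D4:**
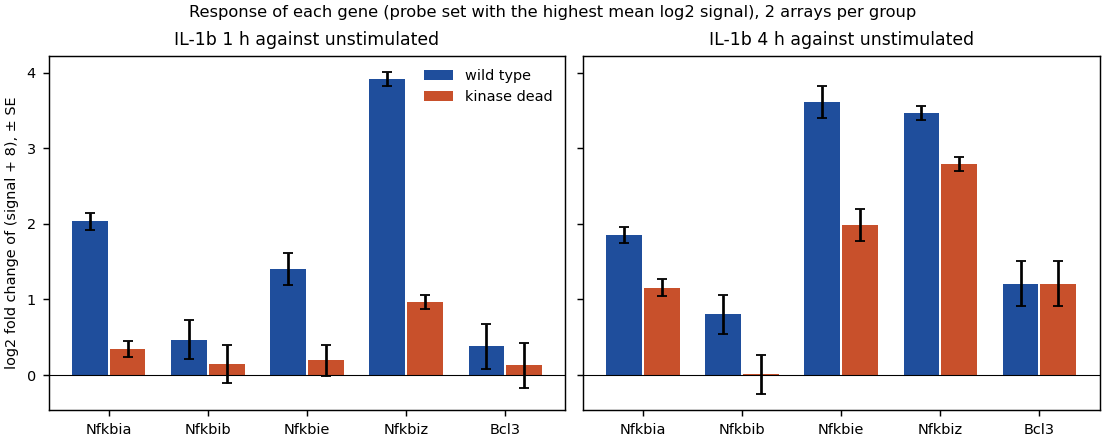
Log2 fold change (± SE, 2 arrays per group) of the leading probe set of each gene against unstimulated cells at 1 h (left) and 4 h (right) in wild-type (blue) and kinase-dead (orange) cells. At 1 h the kinase-dead bars of Nfkbia and Nfkbiz reach 0.35 and 0.96 against 2.04 and 3.91, and at 4 h 1.15 and 2.79 against 1.85 and 3.47.

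The response itself was compared between genotypes through the interaction, kinase-dead response minus wild-type response. At 1 h, 8 of 12 probe sets had a smaller response in kinase-dead cells and 0 a larger one, against 0.366% of all probe sets called in either direction. Without Nfkbiz 1448728_a_at there were 7 of 11 at either time. The 8 at 1 h were all 5 of Nfkbia (-1.49 ± 0.20 to -3.60 ± 0.18) and all 3 of Nfkbiz (-2.42 ± 0.31 to -2.95 ± 0.13). The value of -2.42 is that of 1448728_a_at, whose unstimulated arrays were all under the filter. The leading Nfkbia probe set gave -1.69 ± 0.16 (limma adjusted p = 8.19e-06) and that of Nfkbiz -2.95 ± 0.13 (adjusted p = 3.73e-10). Nfkbie gave -1.21 ± 0.29 and -1.37 ± 0.33 and did not pass (adjusted p of 0.128 and 0.125). The first was 0.0164 without kinase-dead unstimulated replicate 2 and 0.0484 when both probe sets were averaged, and the second 0.04 and 0.0423 without wild-type unstimulated replicate 1 or wild-type 1 h replicate 1.

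At 4 h the response was smaller in kinase-dead cells on 8 of 12 probe sets and larger on 0 (background 1.73%). These include Nfkbiz 1448728_a_at (-1.54 ± 0.31), whose unstimulated arrays were all under the filter, so the size of its value rests on such signals and on the pseudocount. Nfkbiz gave -0.68 ± 0.13 (limma adjusted p = 0.0104; 0.083 without kinase-dead 4 h replicate 2), -1.17 ± 0.21 and -1.54 ± 0.31, all called. The last of these was lost without wild-type 4 h replicate 2, kinase-dead unstimulated replicate 2 or kinase-dead 4 h replicate 1 (adjusted p of 0.059 to 0.0824). Nfkbie gave -1.62 ± 0.29 (adjusted p = 0.00605) and, on the second probe set, -1.19 ± 0.33 (adjusted p = 0.0887; 0.0257 without wild-type unstimulated replicate 1). The Nfkbia probe sets ranged at this time from -0.51 ± 0.20 (adjusted p = 0.246; 0.0118 without wild-type unstimulated replicate 1) to -1.68 ± 0.18, and 4 of 5 were called.

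The leading Nfkbia probe set gave -0.70 ± 0.16 at 4 h (limma adjusted p = 0.0281). That call ended without wild-type 4 h replicate 1, either unstimulated kinase-dead array or either 4 h kinase-dead array, with adjusted p of 0.0619 to 0.135. It also ended when other groups were left out of the fit (0.0832) and with no filter (0.0851). Without the variance trend no leading probe set was called at 4 h (adjusted p of 0.0901 to 0.246 for Nfkbia, Nfkbie and Nfkbiz). The response difference of Bcl3 was -0.25 ± 0.42 at 1 h (95% interval -1.14 to 0.64) and 0.00 ± 0.42 at 4 h (interval -0.89 to 0.88), intervals wide enough to hold differences of either sign. Its unstimulated kinase-dead arrays were under the filter, so the size of both values rests on such signals and on the pseudocount. For Nfkbib the response difference was -0.32 ± 0.36 at 1 h (interval -1.09 to 0.44) and -0.79 ± 0.36 at 4 h (interval -1.56 to -0.03; adjusted p = 0.331).

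**Figure D5:**
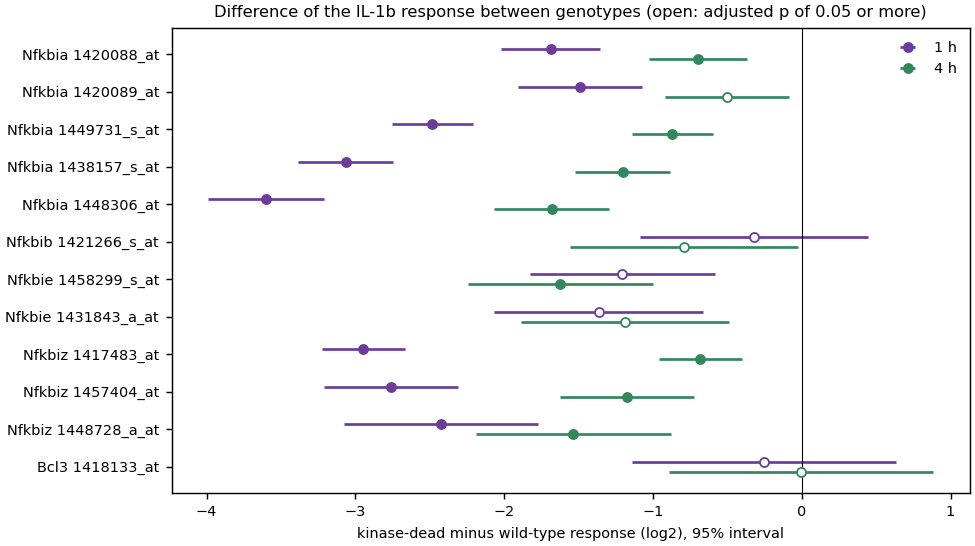
Kinase-dead minus wild-type IL-1b response (log2, with the 95% interval) of the 12 probe sets tested at 1 h (purple) and 4 h (green), open where the adjusted p is 0.05 or more. All Nfkbia and Nfkbiz points lie left of 0, nearer to it at 4 h than at 1 h, while Bcl3 sits at 0.00 at 4 h.

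Levels were also compared directly between genotypes in each condition. In unstimulated cells 2 of 12 probe sets were lower in kinase-dead cells and 0 higher, against 10.8% of all probe sets called. These were Nfkbiz 1417483_at (-0.32 ± 0.09; limma adjusted p = 0.0356) and Bcl3 (-0.97 ± 0.30; adjusted p = 0.0456). The unstimulated kinase-dead arrays of Bcl3 (23.2 and 14.6) were under the filter. The size of its value therefore rests on such signals and on the pseudocount. Both calls were fragile. That of Nfkbiz ended without either array of either unstimulated group or of the wild-type 1 h group (adjusted p of 0.0564 to 0.14). That of Bcl3 ended without wild-type unstimulated replicate 2, either 4 h wild-type array or any of the 6 kinase-dead arrays (0.0558 to 0.274).

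With IL-1b, 11 of the 12 probe sets were lower in kinase-dead cells at 1 h and 11 at 4 h, with 0 higher at either time (background 10.5% and 16.7%). Without Nfkbiz 1448728_a_at the count was 10 of 11 at each time. Nfkbib was the exception at both times (-0.11 ± 0.26 and -0.59 ± 0.26). The kinase-dead minus wild-type difference of the leading Nfkbiz probe set was -3.27 ± 0.09 at 1 h and -1.002 ± 0.09 at 4 h. For Nfkbia it was -1.59 ± 0.11 and -0.60 ± 0.11, and for Nfkbie -1.44 ± 0.21 and -1.86 ± 0.21. For Bcl3 it was -1.22 ± 0.30 at 1 h (limma adjusted p = 0.0119) and -0.97 ± 0.30 at 4 h (adjusted p = 0.0321). The kinase-dead 1 h arrays of Bcl3 (22 and 20.1) were under the filter. The size of its 1 h value therefore rests on such signals and on the pseudocount, and the 1 h counts above include it. At 1 h that Bcl3 call ended without wild-type replicate 1 or either kinase-dead array of that time (0.0593 to 0.213), and at 4 h without any 1 of the 4 arrays of that time (0.0686 to 0.212) and with a pseudocount of 1, no filter or no variance trend (0.0525 to 0.0792). Nfkbia 1420089_at at 4 h had an adjusted p of 0.0518 without wild-type 4 h replicate 1.

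The other genes of the pathway came from a list of 25, of which 23 were found on the array with a single symbol and 21 passed the filter (Nfkb1 and Chuk were not analysed here, and Rel and Nfkbid were under the filter). In wild-type cells 3 rose and 0 fell at 1 h, and 8 rose and 0 fell at 4 h. Over all probe sets 6.65% and 7.52% were called at these times. Those of the list at 1 h were Tnfaip3, Il6 and Csf2, and the Csf2 call ended without any 1 of the 4 arrays compared (adjusted p of 0.0619 to 0.25). In kinase-dead cells 1 rose and 0 fell at each time, beside 2.35% and 0.406% of all probe sets. The wild-type counts include Il6 and Csf2 at both times and Lcn2 at 4 h, which reached the filter only on stimulated wild-type arrays and so were tested only because they were high there. Without these genes only Tnfaip3 is left at 1 h, and Tnfaip3, Tnip1, Relb, Rela and Fbxw11 at 4 h. The wild-type counts are therefore not read against the shares over all probe sets. Medians over the 21 genes were 0.09 and -0.01 in wild-type and -0.01 and 0.11 in kinase-dead cells, near those over all probe sets.

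Among the NF-kB subunits, Relb rose by 1.40 ± 0.23 and Rela by 0.60 ± 0.16 in wild-type cells at 4 h, and neither passed against control in kinase-dead cells (Relb did without either wild-type unstimulated array or kinase-dead unstimulated replicate 2, adjusted p of 0.0399 to 0.0474). The response difference at 4 h did not pass for either (-0.42 ± 0.32 for Relb, adjusted p = 0.595, and -0.13 ± 0.23 for Rela, adjusted p = 0.851; kinase-dead values 0.99 ± 0.23 and 0.47 ± 0.16). The Rela call ended without wild-type unstimulated replicate 1 or either wild-type 4 h array (0.0785 to 0.161). Of the 2 IKK genes tested, Ikbkb and Ikbkg, and the 5 ubiquitin ligase genes that mark IkB proteins for destruction, only Fbxw11 passed against control (0.25 ± 0.07, wild type at 4 h), a call lost without any 1 of 10 arrays, all but the unstimulated wild-type ones (0.0501 to 0.134). Tnfaip3, whose product A20 removes ubiquitin chains upstream of IKK, went from 43.4 ± 0.636 to 1744 ± 174 and 563 ± 1.84 in wild-type cells (SD, n = 2). In kinase-dead cells it went from 50.7 ± 6.65 to 89.8 ± 1.20 and 125 ± 9.90, and it was the 1 pathway gene that rose there at both times. At 1 h that call ended without kinase-dead unstimulated replicate 1 or either kinase-dead 1 h array (0.0835 to 0.0963). Its partner gene Tnip1 rose by 1.01 ± 0.18 in wild-type cells at 4 h. In kinase-dead cells Tnip1 went from 77.8 ± 3.39 to 105.75 ± 8.13 at 1 h and 113.5 ± 8.63 at 4 h (SD, n = 2), and neither was called. The response difference of Tnip1 at 4 h did not pass.

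Genes known from other cells to need IkB-zeta for full induction were followed beside Nfkbiz. Il6, a cytokine gene, had signals of 10.95 ± 3.61, 132.5 ± 0.424 and 1612 ± 64.6 in wild-type cells that were unstimulated, at 1 h and at 4 h (SD, n = 2). In kinase-dead cells it had 8.55 ± 7.14, 19.5 ± 1.41 and 22.4 ± 4.10. Lcn2, the gene of a lipocalin that binds bacterial iron carriers, reached 179 ± 16.1 at 4 h in wild-type and 5.85 ± 3.61 in kinase-dead cells, and Csf2, the gene of GM-CSF, 304 ± 14.1 and 20.7 ± 4.67. All arrays of these 3 genes outside stimulated wild-type cells were under the filter of 25.5, and so were the wild-type 1 h arrays of Lcn2. Their kinase-dead signals therefore have no reliable order, and no fold or test of the genotype difference is given for them. Il12b did not pass in any comparison.

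By likeness of pattern (Pearson correlation of log2 values over the 12 arrays, which share the same 6 groups), the genes closest to Nfkbia were Nfkbiz (0.987), Cxcl1 (0.974) and Cxcl2 (0.970). Closest to Nfkbiz were Nfkbia (0.987), Cxcl1 (0.986) and Cxcl2 (0.973). For Nfkbie they were Casp4 (0.966), Icam1 (0.962) and Stx11 (0.961), for Bcl3 Cd47 (0.940), Eef1e1 (0.931) and Vasp (0.927), and for Nfkbib Trib1 (0.916), Tm9sf4 (0.913) and Mapk1ip1l (0.912). Within the family Nfkbie correlated with Nfkbia at 0.823 and with Bcl3 at 0.871. These are descriptions of arrays chosen from few conditions, and the highest of 12456 genes will be high in any case.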

How the data were processed

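RNA (RNeasy columns, NuGEN Ovation labelling, per the labels) was measured on 12 one-colour arrays. Per the submitters' processing notes, the deposited intensity values are MAS5 signals on a linear scale, made by the authors; the software version is not given in the sources used here. Each array has a mean of 150 after 2% was trimmed from each end. Of 45101 probe sets, 64 controls were left out. Genes were named from the platform annotation where it gives 1 symbol. The title of wild-type unstimulated replicate 1 names no genotype; since the design gives 6 arrays per genotype it was taken as wild type, and leaving it out was an alternative.

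Signals were analysed as log2(signal + 8), which understates changes of dim probe sets. A probe set was tested if 2 or more arrays reached 25.5, the median over the table (27086 did), and no further normalization was applied. limma 3.58.1 (R 4.3.3) fitted 6 group means to all 12 arrays, leaving 6 residual degrees of freedom (eBayes with a variance trend; two-sided; Benjamini-Hochberg over all probe sets in each of 11 comparisons). Calls have an adjusted p under 0.05. Scripts were tested on simulated data. Figures used matplotlib 3.10.9 in Python 3.11.15.

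The members, pathway and marker lists were chosen with earlier results of these data known. Named genes are the 5 members, genes of the pathway list and, per member, the 3 genes most like it; pathway genes given with values were picked for their role or their call after values were seen. Alternatives covered the pseudocount, filter, normalization, variance model, array weights, arrays in the fit, probe sets per gene, a replicate block and each array left out; reading a gene from its probe set of highest mean linear signal, and the alternatives for pathway genes, were added after seeing the data.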

Additional observations from a re-analysis of the deposited data

Results flagged for a closer look

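Response differences between genotypes (kinase-dead minus wild-type, log2; limma interaction) that passed for the leading probe sets are listed for a second look. At 1 h these were Nfkbia (-1.69) and Nfkbiz (-2.95). At 4 h they were Nfkbia (-0.70), Nfkbie (-1.62) and Nfkbiz (-0.68). Groups of 2 arrays are too small for a check of single outlying arrays.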

How the results depend on the processing

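Over 132 probe set and comparison values, 90 were called, and 65 of these kept the call in every alternative run. Of the 42 not called, 29 were called in none. No called value changed sign. Leaving out the variance trend cost 22 of the 90 calls, more than any other alternative. It gave 0 genes called in the 4 h response difference in place of 3, with adjusted p of 0.0901 to 0.246 for Nfkbia, Nfkbie and Nfkbiz. For genes called in kinase-dead cells at 1 h (1), array weights, only the compared groups in the fit and, added after seeing the data, reading Nfkbia from its probe set of highest mean linear signal gave 2, the mean of a gene's probe sets gave 1 but with Nfkbia in place of Nfkbiz, and single arrays left out gave 1 to 2. Single arrays left out gave 1 to 3 genes in the 4 h response difference. The genotype difference in unstimulated cells (2 genes) was least steady: it was 1 with a pseudocount of 32, no filter, median centring, quantile normalization, the mean of a gene's probe sets or the replicate block, 0 with no variance trend, array weights or only the compared groups, and 0 to 2 with single arrays left out. The labels do not say that a replicate number marks a shared batch. The replicate differences correlated between groups at -0.03 to 0.07 over 15 pairs of groups. These values cannot tell of batches that do not follow the replicate number. The replicate block ended 1 call, that of Bcl3 in unstimulated cells (limma adjusted p = 0.052). Signal over background limits Nfkbib and Bcl3.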
